A study of Mus musculus with 2 samples.

Results

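Nonproductive light chain rearrangements are kappa or lambda joins whose transcript was assembled with a V and a J gene but was not marked by the assembler as coding for a full chain. They were taken here as the contigs (assembled receptor transcripts) of chain IGK or IGL that had both genes called and were not marked productive. There were 928 of them among 8497 light chain contigs with both genes and 22408 contigs in all, of which 683 were kappa and 245 were lambda. They came from 914 cell barcodes. The cells were CD45+ leukocytes from the Peyer's patches of mice, which are lymphoid follicles in the wall of the small intestine, and 4 adult female mice were pooled into a single library per genotype. The Cre+ library was from H2-Ab1 fl/fl mice with Villin:Cre+, in which a promoter of the intestinal epithelium drives the recombinase that removes the MHC class II beta chain gene. The Cre- library was from H2-Ab1 fl/fl mice with Villin:Cre-, so both groups carried the floxed alleles and only the first had the recombinase. The series' design text gives the Cre- genotype for both groups, the sample labels do not, and H2-Ab1 was not measured here, so the genotype could not be checked.

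A B cell builds its light chain by joining a V gene to a J gene, first at the kappa locus and, where that fails or gives a receptor against self, on the other kappa allele, at downstream kappa J genes, or at the lambda loci. A join that shifts the reading frame or creates a stop codon can stay in the genome and be transcribed beside the functional chain. Because its V region makes no protein, selection on the receptor does not act on it directly. In the mouse the kappa J genes lie in the order IGKJ1, IGKJ2, IGKJ3, IGKJ4 and IGKJ5, of which IGKJ3 is not functional. At the lambda locus IGLV1 lies beside IGLJ3 and IGLJ1, and IGLV2 and IGLV3 lie together upstream of IGLJ2.

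Most of these contigs had no CDR3 called, which is the stretch across the join. Of the 928 contigs, 838 were full length with no CDR3 called, 23 were not full length, and 85 had a CDR3 called, among them 18 that were not full length. The sequences below were read from the contig tables. They show 3 forms of the 85 called CDR3s. These forms took in 58 of the 85 (7 CDR3s had the first form and the second), and the other 27, from 18 V genes, had none of them. In the first form the CDR3 was called in another frame, so that the tyrosine to cysteine stretch that usually opens a CDR3 (motif TANTNNTGN on the sense strand, in capitals) lay inside it and out of frame. Only calls that held this stretch were counted. A call that started in another frame after it was not, and can be among the second form or the 27.
IGKV4-92 IGKJ2 and IGKJ5: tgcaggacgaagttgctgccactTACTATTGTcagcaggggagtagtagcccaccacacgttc
IGKV4-71 IGKJ5: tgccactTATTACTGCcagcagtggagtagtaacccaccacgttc
The motif stood out of frame in 20 of the 85 CDR3s (23.5%), against 5 of the 7569 CDR3s of productive light chains (0.0661%). In the second form the CDR3 held a stop codon in the frame in which it was called (capitals), as in 17 of the 85. That need not be the frame of the V gene. The IGKV2-137 CDR3 printed here starts inside the usual CDR3 of that gene, in another frame.
IGKV2-137 IGKJ5: tgcaacatcTAGaatatcttcacgttc
IGKV2-112 IGKJ5: tgtcaacaacttgtagagTAGctcacgttc
In the third form the CDR3 was also found in a productive chain of the same V and J genes, as in 28 of the 85 (capitals mark the last codon). These 28 contigs ranged widely in length, with 15 shorter than 450 bases and 10 of 600 bases or more (median 424.5). Their median was 1.5 UMIs, 14 of them rested on 1 UMI (unique molecular identifier, which counts a captured transcript), and 6 had 10 or more.
IGKV9-123 IGKJ1: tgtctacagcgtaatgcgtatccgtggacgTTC
IGLV1 IGLJ1, first form: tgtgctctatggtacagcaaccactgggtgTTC
IGLV1 IGLJ1, second form: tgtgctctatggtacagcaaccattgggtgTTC

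The libraries held 3748 (Cre+) and 3245 (Cre-) barcodes with 355258 and 355985 UMIs, and nonproductive light chains took 2.78% and 3.20% of the light chain UMIs. With 1 library per genotype no test was possible. In parentheses stand exact 95% Clopper-Pearson intervals of each share; they reflect counting error alone and treat barcodes as independent. The Cre- library was dominated by 1 IgA clone: 420 of its barcodes carried that heavy chain, against 77 for the largest clone of the Cre+ library, and the compared values that it moved past their interval are given without it too, here or in the closing section. The libraries shared 10 barcodes, of which 2 had a nonproductive light chain in either library and 0 in both. A nonproductive light chain was found in 13.1% (12.0 to 14.3) of Cre+ barcodes with 1 productive heavy chain and in 34 of 145 with 2 or more (23.4%, 16.8 to 31.2), a class that can hold doublets. For Cre- these shares were 12.5% and 11 of 83 (13.3%, 6.81 to 22.5), and barcodes with 0 heavy chains had 11.7% and 15.3%. The results by cell class below use barcodes with exactly 1 heavy chain. They were classed as kappa or lambda cells by the productive light chain with the most UMIs, so a lambda cell could also hold a productive kappa chain. T cell receptor contigs were found in 16 and 9 of the barcodes with a nonproductive light chain.

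Nonproductive chains made up a similar share of light chain contigs in both libraries, and a larger share of lambda than of kappa contigs. Of 4626 Cre+ light chain contigs 508 were nonproductive (11.0%, 10.1 to 11.9), and of 3871 Cre- contigs 420 were (10.8%, 9.89 to 11.9). The difference was 0.13 percentage points (-1.22 to 1.47). Of kappa contigs, 8.78% (7.95 to 9.67) and 8.51% (Cre-) were nonproductive. Of lambda contigs, 39.2% (34.0 to 44.7) and 41.2% (35.3 to 47.2) were. Counted by barcode, 501 of 3719 Cre+ barcodes with a light chain (13.5%) and 413 of 3197 Cre- barcodes (12.9%) carried a nonproductive join. Both a kappa and a lambda nonproductive chain were found in 6 and 5 barcodes, and 2 nonproductive kappa chains in 1 and 2. Without the clone's barcodes, the share of barcodes was 13.7% (Cre+) and 14.4% (Cre-).

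Nonproductive kappa chains had fewer transcripts than productive ones, and nonproductive lambda chains came closer to theirs. The median nonproductive kappa contig had 8 UMIs (Cre+, interquartile range 5 to 12) and 9 UMIs (Cre-, 5 to 14), and the median productive kappa contig had 27 in each, or 31 in the Cre- library without the clone. The intervals of these medians were far apart, at 7 to 9 against 26 to 28 in the Cre+ library. The median nonproductive lambda contig had 19 UMIs (interval 13 to 24) and the median productive one 23 (21 to 27) in the Cre+ library, so these intervals overlapped. For Cre- the medians were 16 (13 to 19) and 26 (22 to 32), and these intervals lay apart. The lambda pairs differed in this. Over both libraries the nonproductive and productive medians were 10 and 23 for IGLV1 to IGLJ1, the commonest pair. They were 30.5 and 34 for IGLV1 to IGLJ3, 35 and 31 for IGLV2 to IGLJ2, and 20 and 23 for IGLV3 to IGLJ2. Within the same barcode, the nonproductive kappa chain had fewer UMIs than the most abundant productive light chain in 565 of 639 cases (88.4%, 85.7 to 90.8), and the median ratio of the counts was 0.346 (0.333 to 0.368). For nonproductive lambda chains it was 150 of 221 (67.9%, 61.3 to 74.0), with a median ratio of 0.579 (0.500 to 0.684). By library the lambda ratio was 0.673 (Cre+) and 0.500 (Cre-). The most abundant nonproductive join was an IGLV2 to IGLJ2 chain of 1014 UMIs in a Cre- barcode with an IgA heavy chain of 2130 UMIs, whose productive light chain had 8532.

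**Figure D1:**
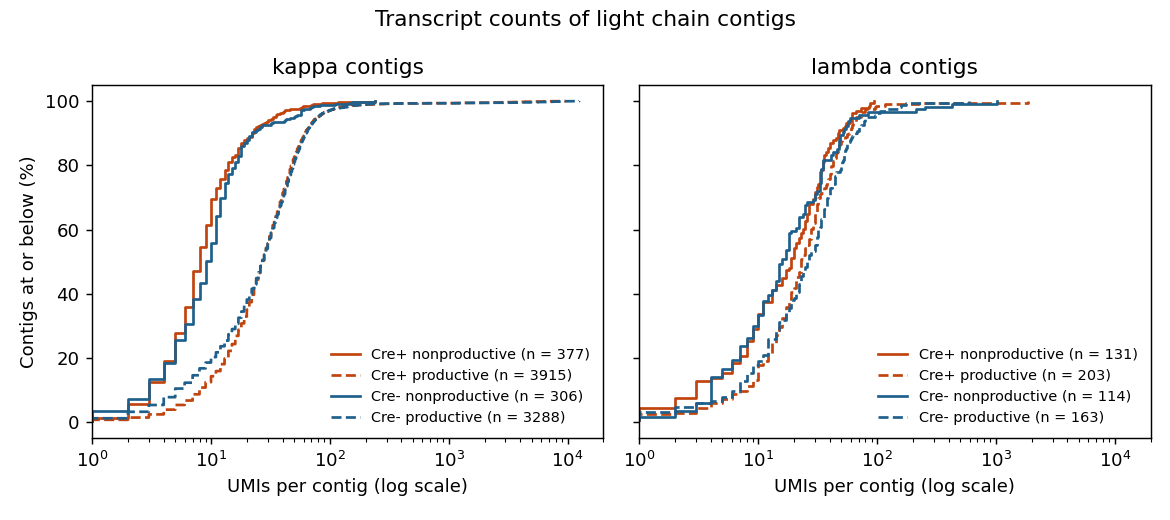
Cumulative share of contigs (y axis, percent) at or below a number of UMIs per contig (x axis, log scale), for kappa (left) and lambda (right), nonproductive (solid) and productive (dashed), in the Cre+ (orange) and Cre- (blue) library. The nonproductive kappa curves (medians 8 and 9) lie left of the productive ones (27 in both), and the lambda curves lie closer together.

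Contigs of nonproductive joins were slightly shorter than productive ones of the same genes. The median length was 522 bases for nonproductive and 528 for productive kappa contigs in the Cre+ library, and 517 and 523 (526 without the clone) in the Cre- library. For lambda it was 551 against 550 (Cre+) and 549 against 553 (Cre-). When each nonproductive contig was set against the median productive contig of the same V and J genes in both libraries, the median difference was -6 bases for 642 kappa contigs (-8 to -4), with 396 shorter, 3 equal and 243 longer. For 243 lambda contigs it was -3 bases (-4 to -2), with 147 shorter, 5 equal and 91 longer. The 6 full-length nonproductive IGLV1 to IGLJ1 contigs that carried the CDR3 forms printed above were 600 to 676 bases long. Productive IGLV1 to IGLJ1 contigs had a median of 514 bases, and 20 of 226 reached 600. The 23 contigs that were not full length had a median of 421 bases and 2 UMIs, and 11 of them rested on 1 UMI.

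Nonproductive kappa joins used 84 IGKV genes, productive ones used 94, and 81 genes were in both. The most used was IGKV1-135 (chromosome 6, 67609745 to 67610508, GRCm38.p6), far upstream of the J genes, with 76 contigs or 11.1% of nonproductive kappa contigs (8.87 to 13.7). It made up 3.76% of productive kappa contigs (3.33 to 4.23), a ratio of 2.96. Its share among nonproductive contigs was 11.9% (Cre+) and 10.1% (Cre-), above the productive 3.88% and 3.62%, and the intervals of both differences lay above 0. The next were IGKV8-16 (24 contigs), IGKV17-121, IGKV4-68 and IGKV6-15 (23 each), IGKV4-92 (22), IGKV5-43 (19), and IGKV19-93 and IGKV5-48 (18 each). The 8 leading genes held 228 contigs, or 33.4%.

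Of 25 IGKV genes with 10 or more nonproductive contigs, 11 (44%) had a share at least 2-fold apart from that among productive contigs with exact intervals that did not overlap, and 9 (36%) were higher among nonproductive ones. The minimum counts nonproductive contigs alone, so it lets in genes frequent among them and leaves out genes rare among them. The counts of 11 and 9 therefore do not measure how often IGKV genes go either way. IGKV4-92 (68755038 to 68755593) was found in 22 nonproductive contigs, 12 Cre+ and 10 Cre-, and in 0 of 7203 productive kappa contigs. Against a set floor of 3 contigs over both libraries (0.0416%), its share of 3.22% was 77.3-fold higher. The exact interval of that 0 reaches 0.0512%, so the fold could be smaller. RefSeq lists IGKV4-92 as a V segment and not as a pseudogene. All 10 of its contigs with a CDR3 called had the shifted frame shown above, in 6 different CDR3s, and their printed CDR3 was shared by 4 barcodes with IGKJ2 or IGKJ5. The other 12 had no CDR3 called. Its median of 23 UMIs was above the 10 of IGKV1-135.

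IGKV8-16 (70386672 to 70387238) was nonproductive in 24 of its 37 contigs (64.9%, 47.5 to 79.8), and its share was 19.5 times that among productive contigs. By library the counts were 9 nonproductive and 9 productive (Cre+), and 15 and 4 (Cre-). IGKV5-45 (69775750 to 69776306) was nonproductive in 14 of 26 contigs (53.8%, 33.4 to 73.4), a ratio of 12.3, with 8 nonproductive and 8 productive in the Cre+ library and 6 and 4 in the Cre- library. No nonproductive contig of either gene had a CDR3 called. IGKV17-121 and IGKV3-7 were 2.21 and 2.81 times as frequent among nonproductive contigs. The interval of the difference included 0 for IGKV17-121 in the Cre- library (1.22 points, -0.33 to 3.72) and for IGKV3-7 in the Cre+ library (0.815 points, -0.12 to 2.57). IGKV1-88 and IGKV1-133, 4.00 and 3.52 times as frequent, also passed, as did IGKV6-23 in the lower direction at 0.457. In the Cre- library the interval of the difference included 0 for IGKV1-133 (0.23 points, -0.41 to 1.93) and for IGKV6-23 (-0.63 points, -2.14 to 1.80). IGKV10-96 was lower, at 1.90% of nonproductive and 5.14% of productive contigs, a ratio of 0.371, and it was lower in both libraries (2.65% against 5.36%, and 0.98% against 4.87%). Among nonproductive contigs with a CDR3 called, only IGKV4-92 had 10 or more and could be compared, and it passed; IGKV1-135 had 0. Genes with fewer than 10 nonproductive contigs were outside this comparison. Among these, chosen after their values were seen, IGKV1-110 had 5 nonproductive and 302 productive contigs, IGKV4-72 had 2 and 166, and IGKV4-59 had 1 and 152. The productive IGKV4-72 contigs included 94 Cre+ joins to IGKJ5, against 10 Cre- ones, and the part of expanded clones in these counts was not tested. In none of the 25 genes did the interval of the difference between the libraries leave out 0, and the largest difference was 2.78 points.

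**Figure D2:**
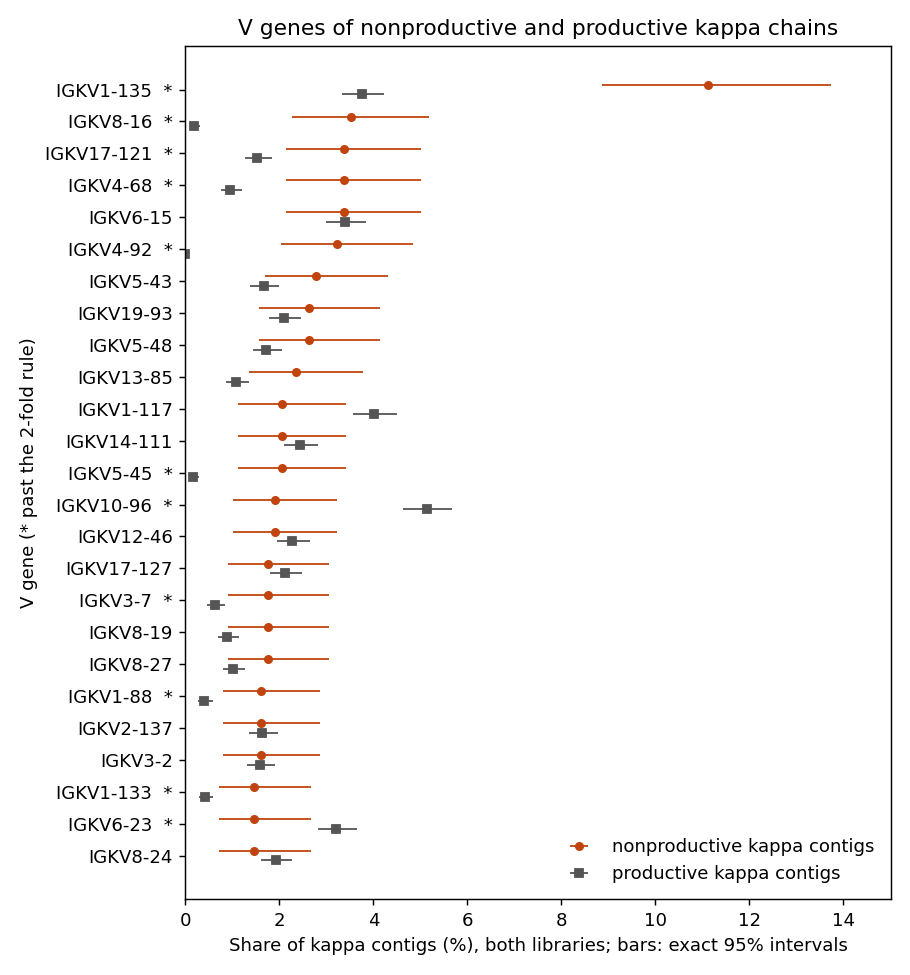
Share of kappa contigs (x axis, percent, both libraries summed) by V gene (y axis) among 683 nonproductive (orange circles) and 7203 productive (grey squares) contigs for the 25 genes with 10 or more nonproductive contigs. Bars are exact 95% intervals and asterisks mark the 11 genes past the 2-fold rule. IGKV1-135 stands highest at 11.1%, and IGKV4-92 has no productive contig.

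IGKV4-68 (69304834 to 69305363) was 3.52 times as frequent among nonproductive contigs (23 against 69 productive), in the Cre+ library with 16 contigs and in the Cre- library with 7, where the interval of the difference included 0 (1.28 points, -0.14 to 3.67). Its called CDR3s were compared with the productive ones base by base, which was done for no other gene. The sequences set a nonproductive CDR3 beside the commonest productive one of the same J gene, with bases 19 to 21 counted from the first CDR3 base in capitals.
IGKV4-68 IGKJ2 nonproductive: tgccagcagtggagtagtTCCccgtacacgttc
IGKV4-68 IGKJ2 productive: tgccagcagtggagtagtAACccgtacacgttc
IGKV4-68 IGKJ4 nonproductive: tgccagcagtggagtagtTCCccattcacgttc
IGKV4-68 IGKJ4 productive: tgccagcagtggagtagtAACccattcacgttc
The substitutions, productive base first, were A19T and A20C with both J genes. Of 8 nonproductive CDR3s, 7 had the codon TCC there and 0 had AAC. Of 69 productive CDR3s, 0 had TCC and 65 had AAC. The other nonproductive CDR3, joined to IGKJ1, was called in the shifted frame of the first form, so its bases 19 to 21 are another stretch. Read from the cysteine of its motif it also had TCC, after AAT in place of AGT. The 7 nonproductive CDR3s were in the usual frame with no stop codon inside them, and the tables used here give no V region sequence outside the CDR3. V genes of this family are close copies, so the call of IGKV4-68 itself was not checked.

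By family, IGKV1 was the most frequent among nonproductive kappa contigs, at 18.8% (Cre+) and 16.7% (Cre-), against 14.0% and 12.2% of productive ones, with overlapping intervals. IGKV5 was higher among nonproductive contigs in the Cre+ library (9.28% against 4.57%, intervals apart) and at 7.52% against 5.11% in the Cre- library, where the intervals overlapped. IGKV6 was lower in the Cre+ library (6.90% against 14.7%) and at 11.8% against 12.6% in the Cre- library. IGKV8 was higher in the Cre- library (13.4% against 6.51%), with 8.22% against 7.36% in the Cre+ library. IGKV10 was at 2.61% against 5.96% in the Cre- library and at 4.24% against 6.56% in the Cre+ library. IGKV11 had 6 nonproductive and 6 productive contigs in the Cre- library, and 2 and 5 in the Cre+ library. IGKV9 was at 4.58% against 15.5% in the Cre- library, but its productive contigs there include the light chain of the dominant clone, and in the Cre+ library it was at 3.71% against 3.45%. For IGKV2, IGKV3, IGKV4, IGKV12 to IGKV17 and IGKV19 the intervals overlapped in both libraries, and IGKV18 had 1 nonproductive and 0 productive contigs in each. The median V gene of nonproductive contigs lay 1792 kb from IGKJ1 in the Cre+ library and 1417 kb in the Cre- library, against 1417 and 1782 kb for productive contigs. Without the dominant clones the medians were 1792 and 1417 kb for nonproductive and 1417 and 1344 kb for productive contigs, so in the Cre- library the direction turned with the clone.

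Among nonproductive kappa joins IGKJ2 was less frequent and IGKJ4 more frequent than among productive ones. For IGKJ4 the direction turned when only contigs with a CDR3 called were counted (12.1% and 8.11% of nonproductive contigs) or only those flagged False (10.7% and 8%). IGKJ2 was used by 79 of 377 nonproductive kappa contigs in the Cre+ library (21.0%) against 30.1% of productive ones, a difference of -9.19 points (-13.4 to -4.50). It was 17.0% against 29.3% in the Cre- library, a difference of -12.3 points (-16.6 to -7.36). IGKJ4 was at 18.8% against 14.1% (Cre+, 4.76 points, 0.77 to 9.21) and at 21.9% against 11.5% (Cre-, 10.4 points, 5.75 to 15.6). IGKJ5, the most downstream, was at 30.5% against 26.3% (4.19 points, -0.63 to 9.30) and at 30.4% against 22.0% (8.37 points, 3.06 to 14.0). IGKJ1, the most upstream, was at 29.7% against 29.5% in the Cre+ library and at 30.7% against 37.2% in the Cre- library. Without the dominant clones IGKJ1 stood at 29.0% against 28.7% in the Cre- library, the IGKJ2 differences were -9.42 and -16.0 points, those of IGKJ4 were 4.70 and 9.49, and those of IGKJ5 were 5.05 (0.23 to 10.2) and 6.25 (0.77 to 12.1).

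Productive kappa chains that accompanied a nonproductive kappa join used IGKJ1 less often than other kappa chains in the Cre- library, with a smaller difference once the dominant clones were set aside, with a difference of -0.048 points (-5.56 to 5.86) in the Cre+ library. There IGKJ1 was at 29.7% of 286 partners and at 29.8% of productive kappa chains without a nonproductive kappa chain, and IGKJ5 was at 27.3% and 25.8%. For Cre-, IGKJ1 was at 21.9% of 228 partners against 39.3%, and IGKJ5 at 30.7% against 21.3%. Without the clones the Cre- difference was -6.95 points for IGKJ1 (-12.5 to -0.72) and 5.72 points for IGKJ5 (-0.51 to 12.4). The partner's J gene lay downstream of that of the nonproductive join in 193 of 514 cases (37.5%, 33.3 to 41.9), was the same in 137 and lay upstream in 184 (35.8%, 31.6 to 40.1). Beside a nonproductive join to IGKJ1, 49 of 161 partners also used IGKJ1 (30.4%) and 38 used IGKJ5 (23.6%). Beside a nonproductive join to IGKJ5, 34 of 144 used IGKJ1 (23.6%) and 39 used IGKJ5 (27.1%).

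Kappa chains that accompanied a nonproductive lambda join used IGKJ5 more often. This split was chosen after the values were seen. IGKJ5 was used by 38.1% of 84 such partners in the Cre+ library, against 25.6% of productive kappa chains without a nonproductive lambda chain, a difference of 12.5 points (2.02 to 23.9). It was 41.8% of 79 against 21.5% in the Cre- library, a difference of 20.3 points (9.20 to 32.1), or 17.2 points without the clones (5.95 to 29.1). IGKJ1 was at 20.2% against 30.0% (Cre+) and at 12.7% against 38.6% (Cre-), or 11.5% against 28.4% without the clone. Leaving out the clone also moved the other J genes of Cre- kappa chains without a nonproductive lambda chain. IGKJ2 went from 28.8% to 33.5%, IGKJ4 from 11.1% to 13.0% and IGKJ5 from 21.5% to 25.1%. Kappa cells with and without a nonproductive lambda chain had a median of 7 and 8 heavy chain UMIs in the Cre+ library and of 9 and 10 in the Cre- library.

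**Figure D3:**
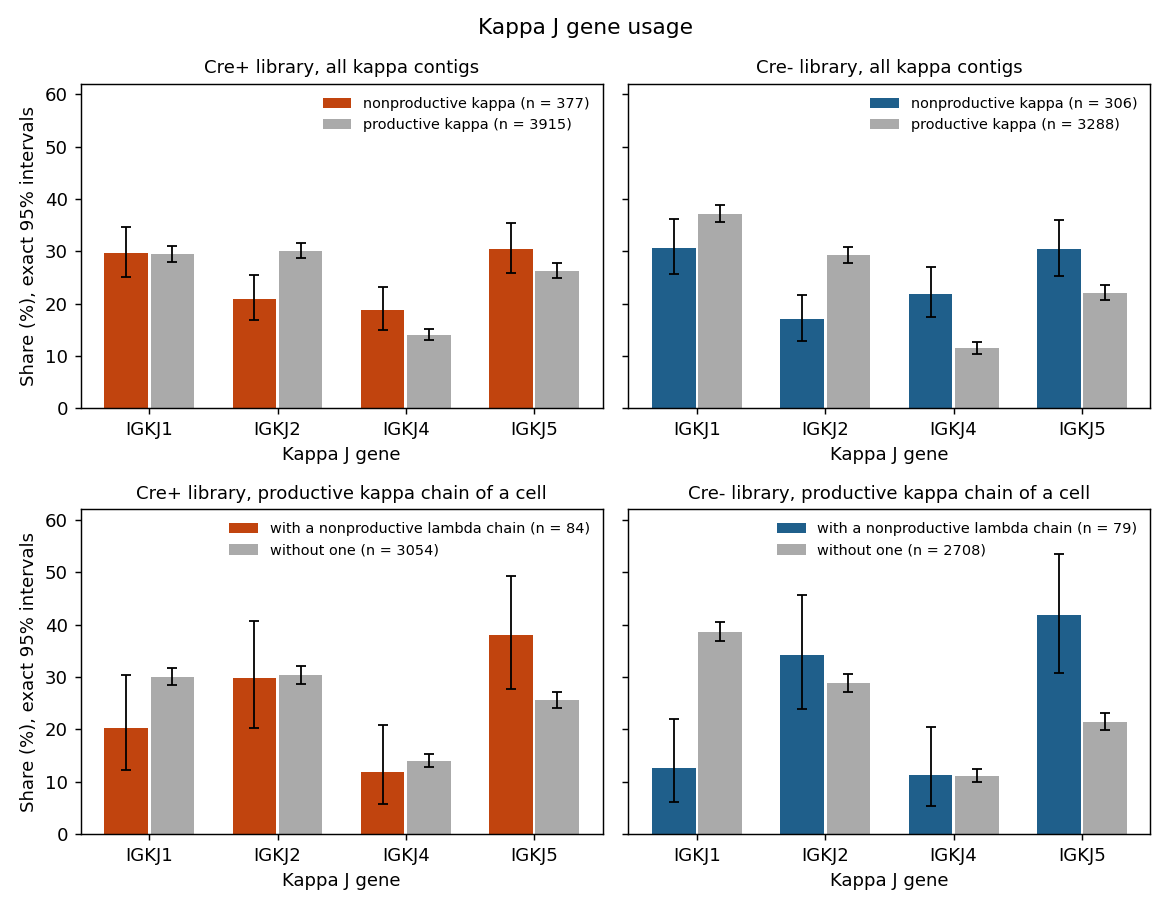
Share (y axis, percent, with exact 95% intervals) of each kappa J gene in the Cre+ (left) and Cre- (right) library. The top row sets nonproductive (coloured) beside productive (grey) kappa contigs, where IGKJ2 is lower at 21.0% and 17.0%; the bottom row sets the productive kappa chain of cells with a nonproductive lambda chain (coloured) beside that of cells without it (grey), where IGKJ5 is higher at 38.1% and 41.8%.

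Nonproductive kappa joins were more frequent in cells whose most abundant productive light chain was lambda. Among cells with exactly 1 heavy chain, a nonproductive kappa chain was found in 281 of 3113 kappa cells (9.03%, 8.04 to 10.1) and in 30 of 149 lambda cells (20.1%, 14.0 to 27.5) of the Cre+ library, a difference of 11.1 points (4.90 to 18.5). For Cre- it was 225 of 2767 (8.13%, or 9.44% without the clone) and 25 of 122 (20.5%), a difference of 12.4 points (5.50 to 20.7). Cells with no productive light chain had it in 12 of 32 cases (37.5%) and in 18 of 58 (31.0%). Of those 18, 7 were the dominant clone's IGKV9-123 contigs, and without the clone it was 10 of 35 (28.6%). When only contigs of 2 or more UMIs were counted, productive ones included, the shares of cells with no productive light chain were 18.4% and 12.8%. Cells whose productive light chain fell below that minimum then counted as having none. A nonproductive lambda chain was found in 2.54% and 2.75% of kappa cells, in 16.8% and 13.1% of lambda cells, and in 25.0% and 24.1% of cells with no productive light chain, or 14 of 35 (40.0%, 23.9 to 57.9) of the latter in the Cre- library without the clone. The median heavy chain count was 8 UMIs in kappa and 9 in lambda cells of the Cre+ library, and 10 and 12 in the Cre- library. Within cells of 8 or more heavy chain UMIs, a bound chosen after the values were seen, the shares with a nonproductive kappa chain were 9.17% of kappa and 18.8% of lambda cells (Cre+) and 7.69% and 19.3% (Cre-).

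**Figure D4:**
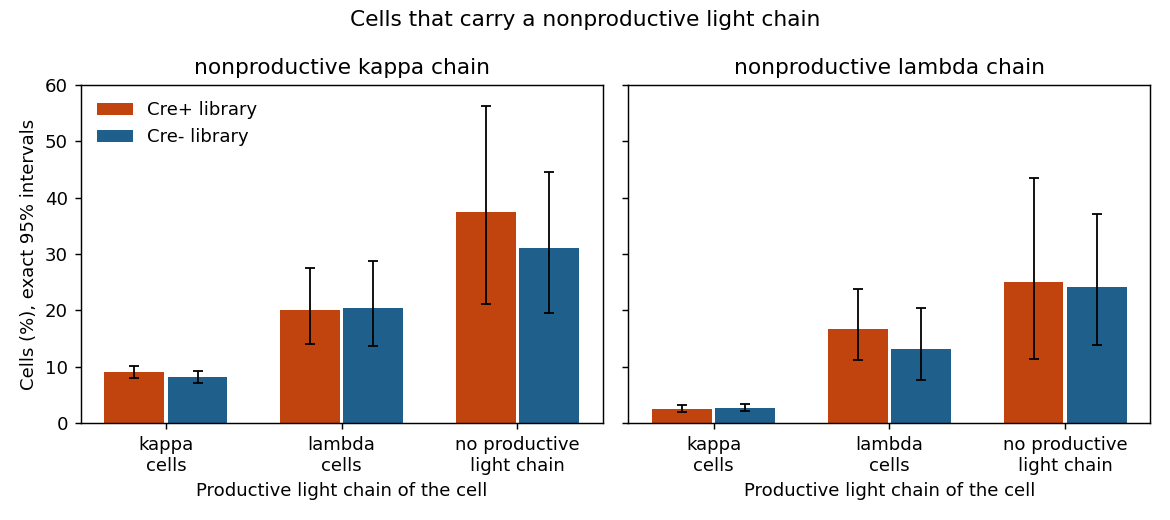
Share of cells (y axis, percent, with exact 95% intervals) that carry a nonproductive kappa (left) or lambda (right) chain, by the class of their most abundant productive light chain, in the Cre+ (orange) and Cre- (blue) library. Lambda cells stand at 20.1% and 20.5% for a nonproductive kappa chain, above kappa cells at 9.03% and 8.13%.

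Nonproductive lambda joins differed by J gene. The lambda genes lie on chromosome 16. The join of IGLV1 to IGLJ3 was nonproductive in 66 of 85 contigs (77.6%, 67.3 to 86.0), in 41 of 50 in the Cre+ and 25 of 35 in the Cre- library. That of IGLV1 to IGLJ1 was nonproductive in 119 of 345 (34.5%, 29.5 to 39.8). The difference was 52.6 points in the Cre+ library (37.4 to 64.0) and 30.9 points in the Cre- library (11.4 to 46.9). IGLJ3 was thus at 32.1% and 21.9% of nonproductive lambda contigs, against 4.43% and 6.13% of productive ones. Nonproductive and productive IGLV1 to IGLJ3 transcripts had medians of 30.5 and 34 UMIs, and nonproductive and productive IGLV1 to IGLJ1 transcripts had 10 and 23. Of the 66, 47 were called with the constant gene IGLC3 and 19 with IGLC2. Productive IGLV1 to IGLJ3 contigs were called with IGLC3 in 13 cases and with IGLC2 in 6. IGLC2 lies on the other side of IGLV1 from IGLJ3, and these constant gene calls were not checked. IGLV3 to IGLJ2 was nonproductive in 25 of 82 contigs (30.5%) and IGLV2 to IGLJ2 in 24 of 74 (32.4%). IGLV1 made up 76.3% and 78.9% of nonproductive lambda contigs, against 71.9% and 64.4% of productive ones. IGLV2 was at 9.92% and 14.9%, and IGLV3 at 13.7% and 6.14%. IGLJ3P, which RefSeq lists as a J segment pseudogene, had 1 contig in all, a Cre- IGLV1 join. Between the libraries, IGLJ1 was at 42.7% of nonproductive lambda contigs of the Cre+ library and 59.6% of those of the Cre- library, a difference of -16.9 points (-29.4 to -3.79), the only one of the 7 lambda V and J genes whose interval left out 0, with no allowance for 7 comparisons.

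**Figure D5:**
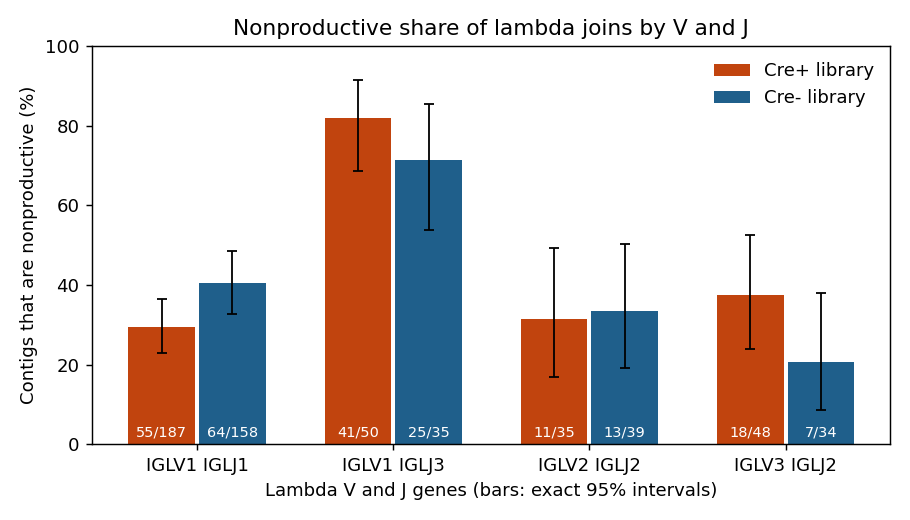
Share of lambda contigs that are nonproductive (y axis, percent, with exact 95% intervals) for the 4 most used V and J pairs in the Cre+ (orange) and Cre- (blue) library, with nonproductive over all contigs at the foot of each bar. IGLV1 to IGLJ3 stands at 82.0% and 71.4%, and the other pairs lie between 20.6% and 40.5%.

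The same V and J genes recurred in many barcodes without shared ancestry in the authors' clonotypes. The Cre+ library held 190 nonproductive V and J pairs and the Cre- library 164, of which 115 were in both (60.5% and 70.1%). Pairs seen in 2 or more barcodes held 78.7% and 78.3% of the nonproductive chains and 99.1% and 98.4% of the more numerous productive ones. The pairs with the most barcodes were IGLV1 to IGLJ1 (119), IGLV1 to IGLJ3 (66), IGKV1-135 to IGKJ1 (61), IGLV3 to IGLJ2 (25), IGLV2 to IGLJ2 (24), and IGKV4-92 to IGKJ2, IGKV5-48 to IGKJ5 and IGKV8-16 to IGKJ1 (11 each). IGKV1-135 to IGKJ1 was found in 36 Cre+ and 25 Cre- barcodes, each in a clonotype of its own. Their 60 productive partners used 38 V genes, of which no gene had more than 5, and 3 partners were lambda. It had 2 to 118 UMIs with a median of 10, no CDR3 was called in any, and the commonest lengths were 515 bases (9 contigs) and 512 (7), against 517 (24) and 513 (20) among 162 productive contigs. IGKJ1 was used by 80.0% and 80.6% of nonproductive IGKV1-135 joins and by 62.5% (54.3 to 70.2) and 56.3% (46.9 to 65.4) of productive ones, where the intervals of the nonproductive shares, 65.4 to 90.4 and 62.5 to 92.5, overlapped the productive ones.

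Within a clonotype, a shared nonproductive V and J pair was rare. In the Cre- library the second clonotype (23 barcodes) had IGKV9-123 to IGKJ1 in 7 barcodes and clonotype 43 had IGKV17-121 to IGKJ4 in both of its 2 barcodes. The 7 IGKV9-123 contigs were of 1 or 2 UMIs and 318 to 496 bases, against a productive median of 497, and all were in barcodes with the dominant clone's heavy chain and no productive light chain. Of these, 5 carried the IGKV9-123 CDR3 printed above, which 404 productive barcodes of the same genes also held. With an IGKV9-124 contig it was in 6 barcodes. The dominant clone's barcodes had a nonproductive light chain in 10 of 420 cases (2.38%, 1.15 to 4.33) in the Cre- library, 8 of them with 1 UMI, and in 3 of 77 (3.90%) in the Cre+ library. Cells of 1 clone share their rearranged light chain loci, so its barcodes are not independent.

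By heavy chain isotype, nonproductive light chains were present in 13.3% of unswitched cells (IgM or IgD) and 11.2% of switched cells of the Cre+ library, a difference of -2.10 points (-5.41 to 1.79). In the Cre- library it was 13.9% and 8.18%, a difference of -5.68 points (-8.14 to -2.96), which became 3.71 points (-0.99 to 9.13) without the dominant clone. By class, they were present in 13.4% and 14.6% of IgM cells, 13.2% and 12.3% of IgD cells, and 8.21% and 5.75% of IgA cells, or 11.0% and 15.6% of IgA cells without the clones. In IgG2b cells it was 22 of 100 (22.0%, 14.3 to 31.4) in the Cre+ and 18 of 93 (19.4%, 11.9 to 28.9) in the Cre- library. In IgG1 cells it was 1 of 55 (1.82%, 0.046 to 9.72) in the Cre+ and 5 of 22 (22.7%, 7.82 to 45.4) in the Cre- library. The Cre+ IgG1 share lay below the floor of 3 counts (5.45%). IgG3 was in 3 cells of the Cre+ library, 1 of them with a nonproductive light chain.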

How the data were processed

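Receptor transcripts of pooled CD45+ Peyer's patch cells were sequenced by 10x Genomics 5' V(D)J profiling, 1 library per genotype. Per the submitters' processing notes, Cell Ranger and build GRCm38 were used, with no version of Cell Ranger given in these sources. The deposited contig tables hold counts of reads and UMIs per contig, not normalised, with each contig's length in bases, and the deposited clonotype tables hold counts of barcodes; the latter matched the contig tables. All deposited contigs were flagged as cell and high confidence, so other barcodes were not analysed here.

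Members were contigs of chain IGK or IGL, V and J called, flagged not productive (67 False, the rest None). Cells are barcodes with exactly 1 productive heavy chain; no doublet caller was run. Values were computed with Python 3.11.15, pandas 2.3.3, numpy 2.4.6 and scipy 1.17.1, as exact 95% Clopper-Pearson intervals, medians with order statistic intervals, and differences with intervals combined from both. These treat barcodes as independent and cover counting error only. No test across samples was possible. The steps were tested on simulated data.

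Named were all J and lambda genes and IGKV families, the 8 leading IGKV genes, up to 8 IGKV genes by the 2-fold rule with 10 or more contigs (in order of contigs; others that passed are also given), the 8 leading V and J pairs, and CDR3s in 3 or more barcodes. The members and lists were chosen with earlier results of these data known. Coordinates are from RefSeq, GRCm38.p6, in which 97 of 97 IGKV names matched. Alternatives were other rules for barcodes, UMI minimums of 2 and 3, other definitions of nonproductive, contigs with a constant gene, each clonotype or barcode counted once, and leaving out the largest clonotype.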

Additional observations from a re-analysis of the deposited data

Results flagged for a closer look

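In some comparisons of kappa J usage the difference had opposite signs in the 2 libraries. With 1 library per genotype the difference between the libraries was not tested, and each difference is in percentage points with the Cre+ value first. For IGKJ1, nonproductive minus productive kappa contigs, it was 0.232 and -6.48, and without the dominant clones -0.33 and 0.22. For the productive kappa partner of a nonproductive kappa chain against other kappa chains, it was -0.33 and 4.29 for IGKJ2, and -1.12 and 3.65 for IGKJ4. Without the clones these were -0.65 and -0.52, now of the same sign, and -1.34 and 1.75. For the partner of a nonproductive lambda chain, it was -0.624 and 5.37 for IGKJ2, and -2.11 and 0.277 for IGKJ4. Without the clones these were -1.03 and 1.14, and -2.36 and -1.46, the last pair of the same sign. The intervals of all the IGKJ2 and IGKJ4 differences in this paragraph included 0.

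The contig tables also hold lambda contigs with a J gene and no V gene, which lie outside the set described here: 1462 in the Cre+ library (11.9% of its contigs) and 1224 in the Cre- library (12.1%). They had a median of 8 UMIs in both libraries and of 302 and 306.5 bases, and each was in a barcode of its own. Kappa contigs with a J gene and no V gene numbered 11 and 5.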

How the results depend on the processing

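No paired analysis was possible because there was 1 library per genotype. Settings that left every compared value within its interval were barcodes with exactly 1 heavy chain (47 values), contigs with a constant gene (30), all barcodes with a productive kappa chain (16) and each V, J and barcode counted once (4). In the other settings the values below moved; values are percentages unless named, with the Cre+ and then the Cre- library where both moved, and the cause was not tested except where the setting itself removes contigs.

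With only the contigs that had a CDR3 called, the nonproductive share was 0.986% and 1.26% of light chain contigs, 0.836% and 1.11% of kappa, 3.79% and 4.12% of lambda contigs, and 1.11% and 1.35% of barcodes. A nonproductive kappa chain was then in 0.514% and 0.578% of kappa cells, 2.68% and 0.820% of lambda cells, and 18.75% (Cre+) of cells without a productive light chain. Its J genes were IGKJ1 at 15.2% (Cre+), IGKJ2 at 30.3% and 27.0%, IGKJ4 at 12.1% and 8.11%, and IGKJ5 at 42.4% and 37.8%, so that IGKJ2 was no longer below the productive share in the Cre+ library and IGKJ4 was below it in both. Its productive partner used IGKJ1 at 18.75% and 31.25%, IGKJ2 at 37.5% and 12.5%, and IGKJ5 at 43.75% (Cre-). The medians were 534 bases (Cre+ kappa), 6 UMIs (Cre- kappa), 6.5 and 7 UMIs (lambda), and 589.5 and 600 bases (lambda). Recurrent pairs held 48.8% and 45.5% of chains, and the share of cells was 0.721% and 0.839% of unswitched and 2.47% and 2.53% of switched cells. The 2-fold rule was passed by 1 IGKV gene, the only 1 with 10 or more such contigs, and IGKV1-135 had 0.

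With only the contigs flagged False, the nonproductive share was 0.843% and 0.919% of light chain contigs, 0.710% and 0.755% of kappa, 3.33% and 4.12% of lambda contigs, and 0.947% and 1.01% of barcodes. The shares of kappa cells were 0.514% and 0.542%, of lambda cells 2.68% and 0.820%, and of cells without a productive light chain 6.25% and 6.90%. IGKJ1 was at 17.9% and 16%, IGKJ2 at 24% (Cre-), IGKJ4 at 10.7% and 8%, and IGKJ5 at 46.4% and 52%. The partner used IGKJ1 at 18.75% (Cre+), IGKJ2 at 37.5% and 13.3%, and IGKJ5 at 46.7% (Cre-). The medians were 542.5 and 526 bases (kappa), 8 and 7 UMIs (lambda), and 600 bases (lambda, both). Recurrent pairs held 54.3% and 40.6%, and the share of cells was 0.653% and 0.751% (unswitched) and 1.92% and 1.34% (switched). The 2-fold rule was passed by 1 IGKV gene, and IGKV1-135 was at 0 in both libraries.

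UMI minimums of 2 and 3 changed the share of cells without a productive light chain that held a nonproductive kappa chain. It was 18.4% and 12.8% at 2, and 16.9% and 8.15% at 3. The minimums also applied to productive contigs, so cells whose productive light chain fell below them joined this class. How much of the fall came from that larger class was not tested.

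The other settings moved values of the Cre- library. Without the authors' largest clonotype, the nonproductive share was 12.0% of light chain contigs, 9.50% of kappa contigs, 14.6% of barcodes, 9.39% of kappa cells and 18.2% of switched cells. Productive kappa contigs had medians of 31 UMIs and 526 bases, and used IGKJ1, IGKJ2, IGKJ4 and IGKJ5 at 29.0%, 33.1%, 13.0% and 24.9%. Those without a nonproductive kappa chain used them at 28.7%, 33.6%, 12.7% and 25.0%. Without any barcode holding that clone's heavy chain, a setting chosen after seeing the data, the share was 14.4% of barcodes, 9.44% of kappa cells and 17.6% of switched cells, productive kappa contigs had medians of 31 UMIs and 526 bases, and they used the 4 J genes at 28.7%, 33.1%, 13.1% and 25.1%, or at 28.5%, 33.6%, 12.8% and 25.1% where no nonproductive kappa chain was present. With each V, J and clonotype counted once, they used them at 28.7%, 33.0%, 13.1% and 25.1%.

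With 1 library per genotype, a difference between libraries cannot be told apart from one between genotypes, and every interval covers counting error only. The 23 contigs that were not full length had a median of 421 bases and 2 UMIs, and their part in the shares was not tested. Contigs without a CDR3 give no sequence across the join, so whether such a join was out of frame was not measured. V genes of 1 family are near copies, and their calls were taken as deposited.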
